A study of Homo sapiens with 6 samples.

Results

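The 37 genes that the deposited table places on the mitochondrial genome were described across 6 RNA-seq libraries. They were taken as all rows with MT as the chromosome, out of 58735 genes, and comprised 13 mRNAs, 2 rRNAs and 22 tRNAs. The cells were HCT116SCs, stem cells that were derived from the human colorectal cancer line HCT116 by magnetic sorting for CD44 and CD326 and were grown as spheres without serum, with EGF, bFGF and B27. The NC group (n = 3 libraries) received a negative control siRNA and the siPSCA group (n = 3 libraries) an siRNA against PSCA, a cell surface antigen. Both groups were transfected with a liposomal reagent and harvested 48 h later. The sources list several siRNAs against PSCA without naming the one used for sequencing, and the titles of siPSCA 2 and siPSCA 3 carry other numbers after HCT, whereas every other label names HCT116. No source says whether the 3 libraries of a group came from separate cultures, so the p-values measure the spread between these libraries, which may be technical.

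The mitochondrial genome is a small circle of DNA that is transcribed from both strands into long precursors. Most mRNAs and both rRNAs are flanked by tRNAs, and the tRNAs are cut out to release them. The products serve a single end: the mRNAs encode subunits of complexes I, III, IV and V of the respiratory chain, and the rRNAs and tRNAs form the machinery that translates them.

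Reads on genes ranged from 16099716 to 17302219 per library. PSCA itself had 4, 12 and 15 reads in NC 1 to NC 3 and 9, 9 and 7 in siPSCA 1 to siPSCA 3. The groups overlapped, and at this depth the knockdown could not be checked. The 6 markers of the sorted cells, CD44, EPCAM (CD326), KRT8, KRT18, KRT19 and CDH1, were detected in every library, with a summed level of 805 to 866 FPKM in NC and 857 to 886 FPKM in siPSCA, where FPKM is fragments scaled to gene length and library size. They did not move together: CD44 and CDH1 were lower in siPSCA, by log2 differences of -0.44 and -0.60 (limma adjusted p = 0.00193 and 0.00134), KRT19 and KRT8 were higher, by 0.25 and 0.22 (limma adjusted p = 0.00589 and 0.00848), and KRT18 and EPCAM did not pass. Their part in the results was not tested. The 10 markers of leukocytes, fibroblasts, endothelium, neurons and liver summed to 4.88 to 7.18 FPKM in NC and 7.15 to 7.96 FPKM in siPSCA. Of these, CD68, CD3E and DCN were at or near 0, and only COL1A1 and SNAP25 averaged at least 1 FPKM. The library NC 3 stood apart. Over 13792 genes, which are not independent replicates, its log2 distance from NC 1 and NC 2 had a Spearman correlation of -0.56 with GC content. The difference between the groups had a correlation of 0.66 with it over these genes. Over the 35 mitochondrial genes tested it was -0.29, with MT-TS1 left out for its few reads. Mitochondrial genes had a median GC content of 42.8% against 48.1% for all genes, so values without NC 3 and with the GC and length trend taken out of each library are given where they alter a call or a direction.

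The largest differences lay in short tRNA genes, so 4 of those that rose most, the 1 that fell and 1 of the most abundant are shown here. The sequences are those of the GENCODE release 29 transcripts on GRCh38, written as DNA from 5′ to 3′ on the strand of the gene. Capitals mark the anticodon, taken as the central triplet of a 7-base loop closed by a mostly paired stem. Only triplets that fit the amino acid in the gene name were considered.
MT-TH (tRNA for histidine, plus strand, MT:12138-12206): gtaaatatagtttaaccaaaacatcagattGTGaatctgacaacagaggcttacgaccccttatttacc
MT-TL2 (leucine, plus strand, MT:12266-12336): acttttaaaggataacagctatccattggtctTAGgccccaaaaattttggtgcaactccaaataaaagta
MT-TG (glycine, plus strand, MT:9991-10058): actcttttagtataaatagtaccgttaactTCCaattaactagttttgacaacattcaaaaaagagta
MT-TY (tyrosine, minus strand, MT:5826-5891): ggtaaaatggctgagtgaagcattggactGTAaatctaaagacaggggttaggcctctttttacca
MT-TN (asparagine, minus strand, MT:5657-5729): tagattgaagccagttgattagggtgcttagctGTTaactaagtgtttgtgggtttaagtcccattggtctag
MT-TP (proline, minus strand, MT:15956-16023): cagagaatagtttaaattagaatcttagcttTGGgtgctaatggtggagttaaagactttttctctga
The tRNA genes are 59 to 75 bases long. A single read on a gene of 70 bases was worth 0.784 to 0.850 FPKM, whereas on a gene of 1 kb it was worth 0.0549 to 0.0595 FPKM. tRNA values are therefore given as reads.

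In siPSCA most of the tested tRNAs and 6 of 13 mRNAs were higher than in NC, and MT-RNR2, MT-CO1 and MT-TP were lower. Of the 37 genes, 35 reached the minimum mean of 1 FPKM and were tested with limma over 13796 genes. MT-TF and MT-TW did not reach it, and MT-TS1 reached it only through siPSCA. By an adjusted p under 0.05, 23 of the 35 were called (65.7%), against 50.7% of all genes tested. Of them 20 were higher (57.1%, against 26.6% of all genes) and 3 were lower, whereas 24.2% of all genes were lower. With the GC and length trend removed, 21 were higher and 0 lower, and without NC 3, 21 were higher and 6 lower. Without the minimum level 10 were higher and 0 lower. The shares of all genes called in these other fits are not given, so these counts have no background beside them. The groups did not overlap in 23 of the 35, against 64.5% of all genes, which is close to the background. Of the 13 mRNAs alone, 7 were called (53.8%), near the 50.7% of all genes. Of these 7, 6 were higher (46.2% of the mRNAs, against 26.6% of all genes). The median log2 difference of the mRNAs was 0.07. NC 3 was the lowest of the 6 libraries for 11 of the 13 mRNAs. Without it 6 mRNAs were higher and 4 lower, and their median was -0.04. With the trend removed 6 were higher and 0 lower, and their median was 0.37. For these 2 fits, too, no background is given. Differences are given as siPSCA minus NC on the log2(FPKM + 1) scale, with the standard error (SE) of the fit. A rise of at least 1 on this scale was called in 12 genes, all of them tRNAs, against 2.42% of all genes. The median log2 difference was 0.63 over the mitochondrial genes tested, with MT-TS1 left out for its few reads, and 0.01 over all genes. With 3 libraries in each group the exact permutation test of a single gene cannot fall below p = 0.1. In such bulk samples a change in the number of cells of a kind and a change in RNA per cell cannot be told apart.

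As a whole, the mitochondrial genome took nearly the same share of the reads in both groups. It held 7.52%, 7.27% and 6.13% of the library total in NC 1 to NC 3 and 7.20%, 7.08% and 7.55% in siPSCA 1 to siPSCA 3. These ranges overlapped. The mean was 6.97% ± 0.74 (SD, n = 3) in NC. In siPSCA it was 7.28% ± 0.24 (SD, n = 3), and without NC 3 the difference of 0.30 percentage points became -0.12. The mRNAs made up most of this share, with 5.23% to 6.60% of the library total in NC and 6.27% to 6.71% in siPSCA. The rRNAs held 0.875% to 0.901% in NC and 0.778% to 0.807% in siPSCA, and these ranges did not overlap. The tRNAs held 0.0249% to 0.0316% in NC and 0.0311% to 0.0360% in siPSCA.

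**Figure D1:**
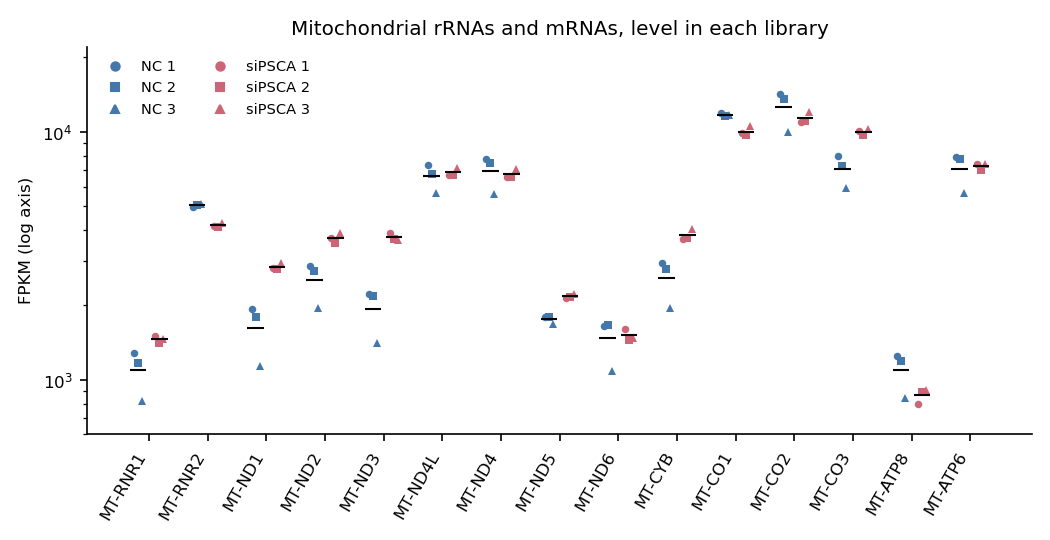
Level of each mitochondrial rRNA and mRNA in FPKM on a log axis, with 1 point per library (circle, square and triangle for libraries 1, 2 and 3, blue for NC and red for siPSCA) and a bar at the mean of 3 libraries. The NC 3 triangles lie under the other NC points for 12 of 13 mRNAs, and the siPSCA points of MT-ND1, MT-ND2, MT-ND3, MT-CYB and MT-CO3 lie above all NC points.

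The 2 rRNAs, which lie next to each other with MT-TV between them, differed in opposite directions. MT-RNR2, the rRNA of the large ribosomal subunit, had 4969, 5067 and 5110 FPKM in NC 1 to NC 3 and 4178, 4131 and 4282 FPKM in siPSCA 1 to siPSCA 3. All siPSCA libraries lay below all NC libraries, and the log2 difference was -0.27 (SE 0.05, limma adjusted p = 0.00547). After removal of the GC and length trend it was -0.04 and was no longer called (adjusted p = 0.702). MT-RNR1, the rRNA of the small subunit, had 1279, 1168 and 821 FPKM in NC and 1495, 1400 and 1460 FPKM in siPSCA. Here the siPSCA libraries were all above NC, by 0.44 (standard error 0.16), but the gene did not pass the threshold (limma adjusted p = 0.0625). It passed without NC 3, at 0.25 (adjusted p = 0.0105), without NC 1, at 0.57 (adjusted p = 0.0304), and after removal of the trend, at 0.61 (adjusted p = 0.0386). The ratio of MT-RNR1 to MT-RNR2, taken within a library, was 0.257, 0.230 and 0.161 in NC and 0.358, 0.339 and 0.341 in siPSCA, with no overlap.

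Of the 7 mRNAs for subunits of complex I, the NADH dehydrogenase that passes electrons into the chain, 4 were higher in siPSCA, none was lower and 3 did not pass the test. The share called, 57.1%, was near the 50.7% of all genes, of which 26.6% were higher. MT-ND3 had 2211, 2164 and 1398 FPKM in NC 1 to NC 3 and 3918, 3685 and 3673 FPKM in siPSCA 1 to siPSCA 3. MT-ND1 had 1928, 1786 and 1130 FPKM in NC and 2827, 2781 and 2945 FPKM in siPSCA. In both genes every siPSCA library was above every NC library, and NC 3 was the lowest. The log2 difference was 1.00 for MT-ND3 (SE 0.18, limma adjusted p = 0.00592). It was 0.86 for MT-ND1 (SE 0.20, limma adjusted p = 0.0136). Without NC 3 these values were 0.78 and 0.62, and both calls held.

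MT-ND2 and MT-ND5 also rose. MT-ND2 had 2862, 2746 and 1942 FPKM in NC and 3724, 3572 and 3901 FPKM in siPSCA, a log2 difference of 0.59 (SE 0.15, limma adjusted p = 0.0195). MT-ND5 had 1786, 1784 and 1672 FPKM in NC and 2142, 2153 and 2209 FPKM in siPSCA, a log2 difference of 0.31 (SE 0.05, limma adjusted p = 0.00414). Without siPSCA 1, siPSCA 2 or siPSCA 3 the call of MT-ND2 was lost (adjusted p = 0.0518 to 0.0621). MT-ND5 was the member of complex I with the smallest distance of NC 3 from the other NC libraries. The mRNAs MT-ND4L and MT-ND4, which share 7 bases, showed no such difference. MT-ND4 had 7788, 7462 and 5601 FPKM in NC and 6548, 6575 and 7054 FPKM in siPSCA, a log2 difference of -0.03 (SE 0.13, limma adjusted p = 0.848). MT-ND4L had 7350, 6776 and 5678 FPKM in NC and 6672, 6724 and 7159 FPKM in siPSCA, a log2 difference of 0.06 (SE 0.10, limma adjusted p = 0.640). Without NC 3, MT-ND4 was called lower, at -0.18 (adjusted p = 0.0276). After removal of the trend it was 0.15 and not called.

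MT-ND6 is the only mRNA on the minus strand, and its base composition is the mirror of the others: its G minus C content over their sum was 0.67, whereas the 12 other mRNAs ranged from -0.68 to -0.30. It had 1644, 1667 and 1083 FPKM in NC and 1600, 1447 and 1474 FPKM in siPSCA, and the groups overlapped (log2 difference 0.07 with SE 0.17, limma adjusted p = 0.765). Without NC 3 the direction turned, to -0.14 (adjusted p = 0.0683). The ratio of MT-ND6 to its neighbour MT-CYB was 0.554, 0.594 and 0.560 in NC and 0.434, 0.389 and 0.362 in siPSCA. This ratio was lower in all siPSCA libraries. The ratio of MT-ND6 to MT-ND5, its neighbour on the other side, was 0.920, 0.935 and 0.648 in NC and 0.747, 0.672 and 0.667 in siPSCA and overlapped. Whether strand was used in counting is not given in the sources used here, so reads of MT-ND6 and of transcripts that run antisense to it cannot be told apart.

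MT-CYB, the only mitochondrial gene for complex III, rose. It had 2965, 2806 and 1935 FPKM in NC 1 to NC 3 and 3682, 3721 and 4066 FPKM in siPSCA 1 to siPSCA 3, with no overlap. Its log2 difference was 0.60 (SE 0.16, limma adjusted p = 0.0248), and 0.40 without NC 3. The call was lost when siPSCA 1, siPSCA 2 or siPSCA 3 was left out (adjusted p = 0.0654 to 0.0753).

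The 3 subunits of cytochrome c oxidase, which form the catalytic core of complex IV, did not move together. MT-CO1 had 11888, 11626 and 11666 FPKM in NC and 9897, 9668 and 10518 FPKM in siPSCA. It was lower in every siPSCA library (log2 difference -0.23 with SE 0.06, limma adjusted p = 0.0168), and this call was lost after removal of the trend, at -0.12 (adjusted p = 0.344), and without siPSCA 1 or siPSCA 2 (adjusted p = 0.0657 and 0.0782). MT-CO3 had 8002, 7284 and 5910 FPKM in NC and 10095, 9726 and 10262 FPKM in siPSCA. It was higher in every siPSCA library (log2 difference 0.52 with SE 0.11, limma adjusted p = 0.0120). MT-CO2, the mRNA with the highest level in both groups, had 14252, 13625 and 9970 FPKM in NC and 10928, 11050 and 12042 FPKM in siPSCA. Its groups overlapped through NC 3 alone (log2 difference -0.14 with SE 0.14, limma adjusted p = 0.446). Without NC 3 it was called lower, at -0.30 (adjusted p = 0.00797), whereas after removal of the trend it stood at 0.02.

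MT-ATP8 and MT-ATP6 encode 2 subunits of the ATP synthase, complex V, and are read from 1 shared mRNA with overlapping reading frames. The 46 bases that they share, at MT:8527-8572, are printed because reads inside them belong to both genes. The capitals mark the start codon of MT-ATP6 and the stop codon of MT-ATP8.
MT-ATP8 and MT-ATP6 overlap: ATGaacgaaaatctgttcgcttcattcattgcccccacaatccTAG
This stretch is 22.2% of MT-ATP8 and 6.75% of MT-ATP6. MT-ATP6 had 7895, 7763 and 5641 FPKM in NC and 7382, 7027 and 7382 FPKM in siPSCA (log2 difference 0.05 with SE 0.14, limma adjusted p = 0.781). MT-ATP8 had 1243, 1193 and 842 FPKM in NC and 799, 894 and 909 FPKM in siPSCA (log2 difference -0.31 with SE 0.15, limma adjusted p = 0.134). Neither passed the test with all libraries, and only NC 3 made the groups of MT-ATP8 overlap: without it the gene was called lower, at -0.49 (adjusted p = 0.00176). After removal of the trend MT-ATP8 stood at 0.09 and was not called. The ratio of MT-ATP8 to MT-ATP6 was 0.157, 0.154 and 0.149 in NC and 0.108, 0.127 and 0.123 in siPSCA. In this ratio NC 3 lay with the other NC libraries, and the groups did not overlap. The ratio also depends on how reads that fall on both genes were counted, which is not given in the sources used here.

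MT-CO3 begins at the last base of MT-ATP6, with no tRNA between them. The ratio of MT-CO3 to MT-ATP6 was 1.01, 0.938 and 1.05 in NC and 1.37, 1.38 and 1.39 in siPSCA. The groups did not overlap, and NC 3 lay close to NC 1. The ratio of MT-ND3 to MT-CO3, which MT-TG separates, was 0.276, 0.297 and 0.237 in NC and 0.388, 0.379 and 0.358 in siPSCA. Across the rRNA and mRNA border, the ratio of MT-ND1 to MT-RNR2 was 0.388, 0.352 and 0.221 in NC and 0.677, 0.673 and 0.688 in siPSCA, so both ratios were higher in each siPSCA library. By contrast, the ratio of MT-CO2 to MT-CO1 overlapped, at 1.20, 1.17 and 0.855 in NC and 1.10, 1.14 and 1.14 in siPSCA. These ratios are a description of the libraries and were not tested.

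**Figure D2:**
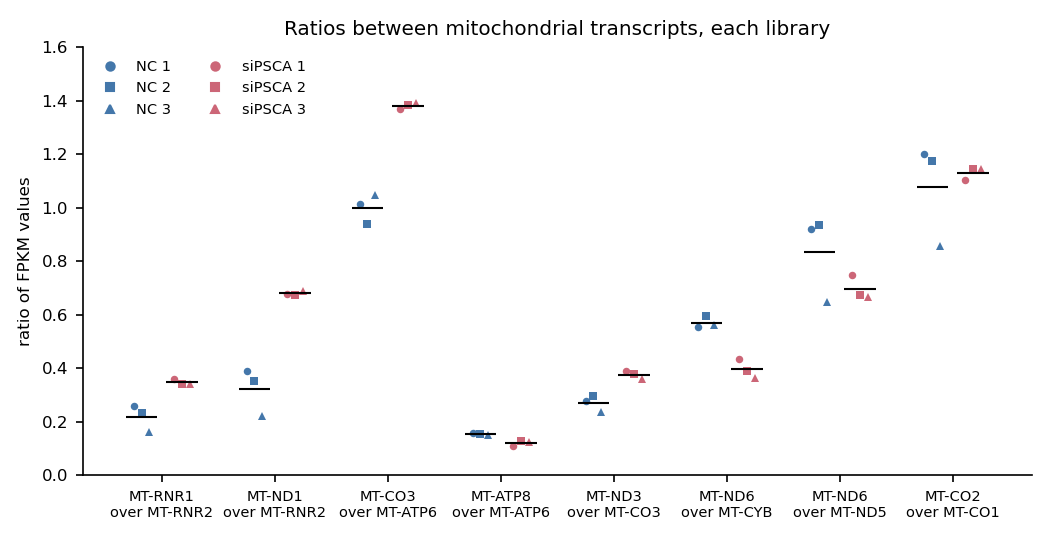
Ratio of the FPKM values of pairs of mitochondrial transcripts within each library (points as libraries 1, 2 and 3 of NC in blue and siPSCA in red, bar at the mean). MT-RNR1 over MT-RNR2, MT-ND1 over MT-RNR2, MT-CO3 over MT-ATP6 and MT-ND3 over MT-CO3 were higher in all siPSCA libraries, MT-ATP8 over MT-ATP6 and MT-ND6 over MT-CYB were lower in all of them, and the 2 other ratios overlapped.

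The division of mitochondrial mRNA reads among the genes also differed between the libraries of the groups. These shares were not tested and were not computed with the GC and length trend removed. MT-CO1 held 27.8%, 28.3% and 34.4% of mitochondrial mRNA reads in NC 1 to NC 3 and 23.8% to 24.2% in the siPSCA libraries. MT-ND1 held 2.79%, 2.69% and 2.07% in NC and 4.24%, 4.24% and 4.19% in siPSCA, and MT-CYB 5.13%, 5.05% and 4.23% in NC and 6.59%, 6.77% and 6.91% in siPSCA. The shares of MT-ATP6, MT-ND4L and MT-ND6 overlapped. Within the siPSCA group the 15 mRNAs and rRNAs varied by 1.66% to 6.87% (SD over mean, n = 3), and within NC by 1.20% to 26.4%. NC was the more variable group for 13 of the 15. NC 1 and NC 2 differed from each other by 0.143% to 9.40% of their mean, whereas NC 3 ranged from 0.609 to 1.02 times their mean.

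The tRNAs carried the largest differences. Of the 20 tested, 14 were higher in siPSCA, 1 was lower and 5 did not pass, so that 70% were higher against 26.6% of all genes. The median log2 difference was 1.51 over these tRNAs, with MT-TS1 left out for its few reads. All 22 tRNA genes together had 4278, 4337 and 5438 reads in NC and 6092, 5908 and 5668 in siPSCA, 1.22-fold higher relative to the library totals. Leaving out MT-TN, MT-TC and MT-TP, which hold most of the tRNA reads, the 19 other tRNA genes had 520, 372 and 338 reads in NC 1 to NC 3 and 1485, 1275 and 1182 reads in siPSCA 1 to siPSCA 3. Relative to the library totals this sum, over genes chosen after their values were seen, was 3.12-fold higher in siPSCA. How reads that cross the border between a tRNA and its neighbour were counted is not given in the sources used here. Reads on a tRNA gene may come from the cut tRNA or from a precursor that still holds it. These cannot be told apart, so the values are not levels of finished tRNAs.

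Next to each other between MT-ND4 and MT-ND5 lie the genes MT-TH, MT-TS2 and MT-TL2, which carry histidine, serine and leucine to the ribosome. MT-TH had 38, 31 and 50 reads in NC and 383, 322 and 187 reads in siPSCA (log2 difference 2.79 with SE 0.31, limma adjusted p = 0.00157). MT-TS2 had 20, 13 and 11 reads in NC and 73, 53 and 48 reads in siPSCA (log2 difference 1.89 with SE 0.27, limma adjusted p = 0.00275). MT-TL2 had 3, 0 and 3 reads in NC and 32, 23 and 15 reads in siPSCA (log2 difference 3.04 with SE 0.55, limma adjusted p = 0.00599). No library of one group reached into the range of the other in this cluster, while MT-ND4 before it did not pass the test and MT-ND5 after it rose by 0.31. Relative to MT-ND4 in the same library, the FPKM of MT-TH was 0.00421, 0.00346 and 0.00751 in NC and 0.0501, 0.0399 and 0.0211 in siPSCA.

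Of the other tRNAs of the plus strand, MT-TL1, MT-TG and MT-TR had the most reads and all were higher. MT-TL1, between MT-RNR2 and MT-ND1, had 161, 144 and 124 reads in NC and 237, 215 and 261 in siPSCA (log2 difference 0.69, limma adjusted p = 0.00511). MT-TG, between MT-CO3 and MT-ND3, had 28, 13 and 37 reads in NC and 147, 113 and 97 in siPSCA (log2 difference 2.20, limma adjusted p = 0.00549). MT-TR, between MT-ND3 and MT-ND4L, had 170, 121 and 68 reads in NC and 265, 243 and 287 in siPSCA (log2 difference 1.19, limma adjusted p = 0.0225). MT-TR lost its call without any 1 siPSCA library (adjusted p = 0.0553 to 0.0723). In all 3 genes the groups did not overlap, and the tRNAs carry leucine, glycine and arginine. The tRNAs MT-TI, MT-TM, MT-TD and MT-TK, for isoleucine, methionine, aspartate and lysine, were called higher on few reads. They had 0 to 8 reads per NC library and 4 to 38 per siPSCA library, and log2 fold changes of 1.95, 2.19, 1.73 and 1.38 in that order. MT-TK, with no read in NC 3, stood at 0.85 without that library and lost its call without NC 1 or any 1 siPSCA library (adjusted p = 0.0624 to 0.135). MT-TV, which lies between the rRNAs, had 9, 2 and 10 reads in NC and 21, 10 and 12 in siPSCA and did not pass (log2 difference 1.02, limma adjusted p = 0.157).

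**Figure D3:**
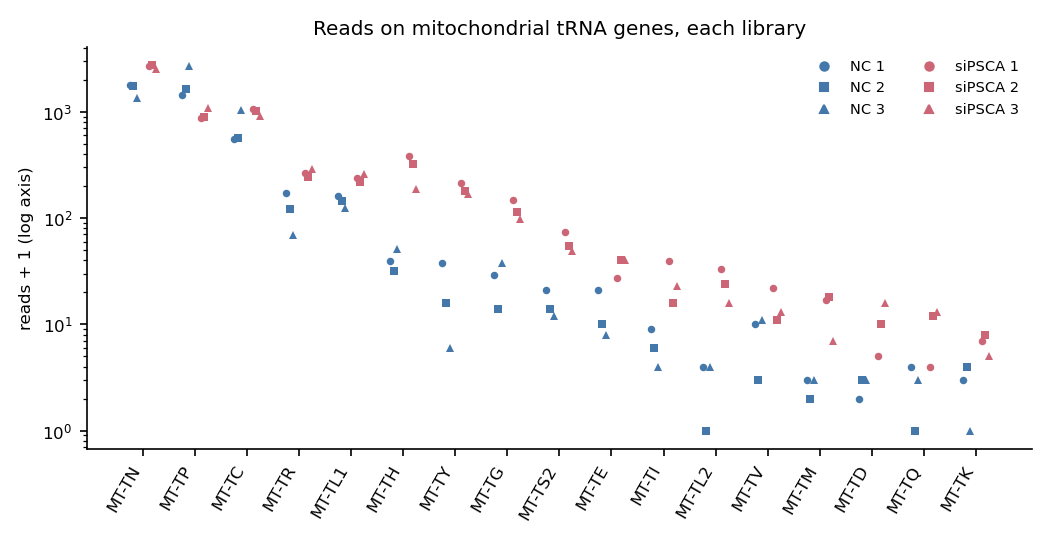
Reads (plus 1, on a log axis) on each mitochondrial tRNA gene that had a mean of at least 10 reads per library or was called, with 1 point per library (NC blue, siPSCA red). MT-TH, MT-TY and MT-TG separate the groups most clearly among the genes with over 100 reads in some library, and MT-TP is the gene whose siPSCA points all lie under the NC points.

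On the minus strand 4 of the 8 tRNA genes were higher (50%, against 26.6% of all genes), 1 was lower and 3 did not pass. As for MT-ND6, reads of these 8 genes and of transcripts antisense to them cannot be told apart. MT-TY, for tyrosine, had 37, 15 and 5 reads in NC and 211, 177 and 167 reads in siPSCA, a log2 difference of 3.53 (SE 0.63, limma adjusted p = 0.00565). This was the largest of the mitochondrial genes with all libraries. Without NC 3 MT-TY was called at 2.86 (adjusted p = 0.00178), below MT-TL2 at 3.33 and MT-TH at 2.97. MT-TE, for glutamate, had 20, 9 and 7 reads in NC and 26, 39 and 39 in siPSCA (log2 difference 1.51, limma adjusted p = 0.0165), and was not called without siPSCA 2 or siPSCA 3 (adjusted p = 0.0575 and 0.0530). MT-TQ, for glutamine, passed on at most 12 reads per library, with overlapping groups (log2 difference 1.74, limma adjusted p = 0.0496), and lost its call without NC 2, NC 3, siPSCA 2 or siPSCA 3 (adjusted p = 0.0600 to 0.141).

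The 3 tRNAs with the most reads, all of the minus strand, differed each in its own way. MT-TN, for asparagine, had 1769, 1745 and 1355 reads in NC and 2674, 2740 and 2505 in siPSCA and was higher (log2 difference 0.67 with SE 0.12, limma adjusted p = 0.00616). MT-TC, for cysteine, had 557, 571 and 1033 reads in NC and 1061, 1006 and 907 in siPSCA. Here NC 3 lay among the siPSCA libraries, and the gene was called only without it (0.77, adjusted p = 0.00151, against 0.48, limma adjusted p = 0.146 with all libraries). An unannotated gap of 31 bases separates MT-TN from MT-TC. MT-TP, for proline, had 1432, 1649 and 2712 reads in NC and 872, 887 and 1074 in siPSCA. It was the 1 tRNA that fell, by 1.02 on the log2 scale (SE 0.23, limma adjusted p = 0.0125). Without NC 3 it stood at -0.75 and was still called, but after removal of the trend it stood at -0.58 and was not (adjusted p = 0.107). MT-TP is the last gene before the noncoding control region. As for MT-ND6 and the other tRNA genes of the minus strand, reads of these genes and of antisense transcripts cannot be told apart.

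The remaining tRNAs, MT-TF, MT-TW, MT-TA, MT-TS1 and MT-TT, had 0 to 14 reads in any library and none was called. MT-TF, MT-TW and MT-TS1 averaged at or under 3 reads in both groups, so no fold change is given for them.

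**Figure D4:**
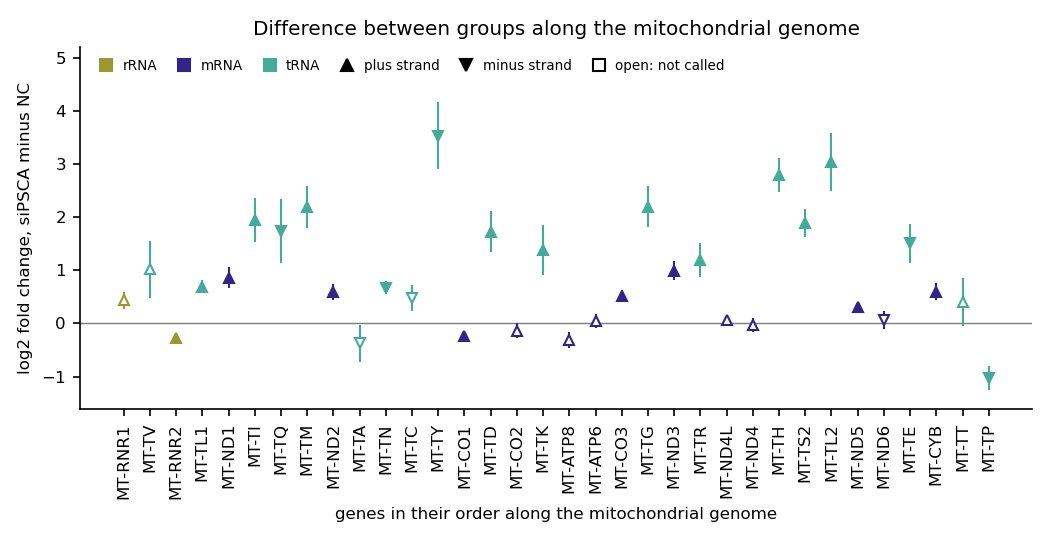
Log2 fold change, siPSCA minus NC, on the log2(FPKM + 1) scale with its standard error, for the mitochondrial genes above 3 mean reads in some group, in their order along the genome. Upward triangles are plus-strand and downward triangles minus-strand genes, and open symbols did not pass the adjusted threshold. The tRNAs reach 3.53 at MT-TY and -1.02 at MT-TP, whereas the mRNAs and rRNAs stay between -0.31 and 1.00.

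Pieces of the mitochondrial genome have been copied into nuclear chromosomes, and reads that fit both places can be divided between them. A run of such copies lies on the plus strand of chromosome 1 (GRCh38), from MTND1P23, which starts at 629062, to MTCO3P12, which ends at 634922. Aligned with the mitochondrial genes they shared 97.6% to 98.7% of bases. Of all 50-base windows of MT-CO1, 49.4% occurred letter for letter in its copy on chromosome 1, and so did 46.7% for MT-ATP6, 43.6% for MT-ND2, 30.6% for MT-CO3 and 22.1% for MT-ND1. No such window of MT-RNR1, MT-ND3, MT-ND4L or any tRNA occurred in any of the 407 listed copies. Only the annotated copies themselves were searched. The rest of the nuclear genome was not, and neither were the stretches of chromosome 1 that lie between them. Whether reads of MT-RNR1, MT-ND3, MT-ND4L or the tRNAs also fit there was therefore not tested.

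Of these 407 copies, 105 had a read and 5 were tested. Of the 5 tested, 1 was higher and 1 lower, beside 26.6% and 24.2% of all genes. MTATP6P1 had 13686, 16322 and 15095 reads in NC 1 to NC 3 and 8297, 10277 and 11415 reads in siPSCA 1 to siPSCA 3. It fell in all siPSCA libraries (log2 difference -0.64 with SE 0.10, limma adjusted p = 0.00431). MTND2P28 had 3276, 3343 and 2694 reads in NC and 3889, 4139 and 4498 reads in siPSCA and rose (log2 difference 0.39 with SE 0.09, limma adjusted p = 0.0156), a call lost without siPSCA 3 (adjusted p = 0.0535). The copy took 13.2%, 15.1% and 18.6% of the reads of MT-ATP6 and MTATP6P1 together in NC, and 8.89%, 10.8% and 11.1% in siPSCA. With both added, the log2 ratio of siPSCA to NC was -0.05. For MT-ND2 and MTND2P28 the copy took 6.14% to 7.17% in NC and 5.59% to 5.89% in siPSCA, and the log2 ratio of the sums was 0.56. MTCO1P12 had at most 825 reads and took 0.156% to 0.266% of its pair, and it, MTCO3P12 and MTND1P23 did not pass the test. The levels of MT-ATP6, and those of MT-ND2 to a lesser extent, are thus uncertain by the reads assigned to the copy.

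The nuclear genes that maintain mitochondrial DNA and make, process and degrade its RNA were called about as often as all genes. Of 76 symbols in 5 lists, 74 were in the table and 72 were tested. Of these, 25 were higher and 12 lower, together 51.4% against 50.7% of all genes, and the median log2 difference was 0.07. Among the 10 transcription genes, 2 were higher and 4 lower (60% called). POLRMT, the mitochondrial RNA polymerase, had 20.3, 20.4 and 11.6 FPKM in NC and 27.8, 28.3 and 26.5 FPKM in siPSCA (log2 difference 0.67, limma adjusted p = 0.0366). Without NC 3 it stood at 0.42 and was called. With the trend removed it stood at -0.06, and the call was also lost without siPSCA 1, siPSCA 2 or siPSCA 3 (adjusted p = 0.0797 to 0.0993). TFAM, which packages mitochondrial DNA and activates its promoters, had 11.2, 11.3 and 12.3 FPKM in NC and 9.84, 9.91 and 10.7 FPKM in siPSCA (log2 difference -0.18, limma adjusted p = 0.0473). That call was lost whichever library was left out (adjusted p = 0.0572 to 0.146), and the direction turned after removal of the trend, at 0.10. MRPL12, a protein of the mitochondrial ribosome, rose by 1.64 and MTERF2, of the MTERF family, fell by 0.45. MRPL12 lost its call without siPSCA 1 or siPSCA 2 (adjusted p = 0.0913 and 0.0819). TFB2M and TEFM, factors of initiation and elongation, stood at 0.04 and -0.10 and did not pass. With the trend removed TFB2M was called higher, at 0.28 (adjusted p = 0.0236), and TEFM stood at 0.17.

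Of the 6 genes of RNA stability, 1 was higher and 3 were lower (66.7% called, against 50.7% of all genes). LRPPRC, which with SLIRP protects mitochondrial mRNAs, had 37.5, 38.2 and 42.3 FPKM in NC and 28.9, 29.5 and 29.8 FPKM in siPSCA (log2 difference -0.41 with SE 0.06, limma adjusted p = 0.00304). It was called lower in the fit without NC 3 and after removal of the trend, where it stood at -0.35 and -0.13. PNPT1 and SUPV3L1, which form the mitochondrial RNA degradation complex, fell by 0.29 and 0.18, and both lost their call after removal of the trend. Left out singly, NC 2, siPSCA 1 or siPSCA 2 also ended both calls (adjusted p = 0.0632 to 0.135), and siPSCA 3 that of SUPV3L1 (adjusted p = 0.0660). SLIRP stood at -0.20 and did not pass (limma adjusted p = 0.145), and at 0.06 with the trend removed.

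Of the 30 tested genes of RNA processing, 11 were higher and 2 lower, together 43.3% against 50.7% of all genes. ELAC2, which cuts the 3′ ends of tRNAs from the precursor, had 16.5, 17.4 and 16.03 FPKM in NC and 23.4, 22.8 and 22.7 FPKM in siPSCA (log2 difference 0.44 with SE 0.05, limma adjusted p = 0.00159). TBRG4 (also called FASTKD4) and FASTKD5, RNA-binding proteins that act on mitochondrial mRNAs, rose by 0.46 and 0.31, and MRM1, which methylates the large rRNA, by 1.03. ELAC2, TBRG4, FASTKD5 and MRM1 were each called in the fits without NC 3 and after removal of the trend. TRMT10C, a subunit of the RNase P that cuts the 5′ ends of tRNAs, stood at -0.19 (limma adjusted p = 0.216), GRSF1 of the RNA granules at 0.13 (adjusted p = 0.0796) and the poly(A) polymerase MTPAP at -0.02 (adjusted p = 0.726), none of which passed. With the trend removed MTPAP and GRSF1 were called higher, at 0.27 (adjusted p = 0.0122) and 0.37 (adjusted p = 0.000831), and TRMT10C stood at 0.11. GRSF1 was also called without NC 3, at 0.17 (adjusted p = 0.00991).

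For DNA maintenance, 8 of 19 genes were higher and 1 was lower, together 47.4% against 50.7% of all genes. TWNK, the mitochondrial helicase, rose by 0.33 and lost its call after removal of the trend, and SLC25A36, a carrier of pyrimidine nucleotides, fell by 0.82. Among 7 tested nuclear regulators 3 were higher and 2 lower (71.4% called). ESRRA, a nuclear receptor that activates genes of oxidative metabolism, had 11.98, 11.7 and 5.86 FPKM in NC and 24.3, 23.5 and 21.9 FPKM in siPSCA (log2 difference 1.22, limma adjusted p = 0.00880). GABPA, a transcription factor of respiratory chain genes, fell by 0.54. Both calls held without NC 3 and after removal of the trend. The relation of these levels to those of the mitochondrial transcripts was not tested.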

How the data were processed

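RNA was measured in 6 libraries, 3 per group, grouped by their labels. The authors extracted RNA with TRIzol, used the NEBNext Ultra RNA kit and sequenced paired ends. Aligner, counting program, RNA selection and strand setting are not given in the sources used here. The authors deposited 1 table of FPKM values, without columns of comparisons, and 0 sample columns were left unused. All 58735 genes matched GENCODE release 29 on GRCh38 (the build in the submitters' processing notes) in position and strand. FPKM times gene length gave whole multiples of 1 step for 100% of values (tolerance 0.02), so reads per gene and library totals of 16803235 to 18218661 were recovered. These set the precision for counting error only.

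limma 3.58.1 in R 4.3.3 (lmFit, eBayes with trend, group as the only term) used log2(FPKM + 1) of the 13796 genes that averaged 1 FPKM or more, and p-values were adjusted by Benjamini and Hochberg. This scale understates changes of low genes. On simulated data with 3 libraries a group, 176 of 200 genes changed by 1 and 55 of 200 changed by 0.5 were recovered among 13796, with 11 and 3 false calls. The simulation gave all genes the same dispersion and had no GC trend and no outlying library. Its rates therefore need not hold for these data. Shares, sums and ratios had no test. GC content came from the longest GENCODE transcript of 58676 genes, and its trend with log2 length was removed per library by splines with 4 degrees of freedom. Other alternatives were a pseudocount of 0.1, no minimum, other scalings, limma-voom on recovered reads, a replicate block and leaving out each library. Python 3.11.15, pandas 2.3.3, numpy 2.4.6, biopython 1.88 and matplotlib 3.10.9 served for tables, alignments and figures.

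Members, lists and tests were chosen with earlier results of these data known. Named were all mRNAs and rRNAs, tRNAs with a mean of at least 10 reads or called, copies with a mean of at least 1 FPKM, 15 nuclear genes by name, and, of the called nuclear genes without overlap between groups, the 3 that rose most and the 3 that fell most.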

Additional observations from a re-analysis of the deposited data

How the results depend on the processing

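The 23 calls among the mitochondrial genes (20 higher, 3 lower) became 10 (10 higher, 0 lower) with no minimum level. In that setting all genes with a read entered both the fit and the adjustment. With the GC and length trend removed, 0 were lower. Leaving out single libraries gave 16 to 27 calls, 14 to 21 higher and 2 to 6 lower. The 37 calls among nuclear factors became 24 with no minimum (6 lower), 5 were lower with the trend removed, and single libraries left out gave 22 to 39 calls, 16 to 27 higher and 6 to 12 lower. Of the 2 calls among nuclear copies, leaving out single libraries left 1 to 2, with 0 to 1 higher, MTND2P28 losing its call without siPSCA 3. With no minimum 2 copies were lower. The shares of all genes called in these other fits are not given, so these counts have no background beside them.

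With the trend removed, differences that turned direction stood at 0.022 for MT-CO2, 0.088 for MT-ATP8, 0.15 for MT-ND4, -0.062 for POLRMT, 0.11 for TRMT10C, 0.057 for SLIRP, 0.10 for TFAM, 0.27 for MTPAP, 0.17 for TEFM and 0.21 for MTND1P23. Of these MTPAP alone was then called (limma adjusted p = 0.0122). With single libraries left out, genes that were not called turned direction within ranges of -0.11 to 0.13 for MT-ATP6, -0.043 to 0.14 for MT-ND4L, -0.18 to 0.056 for MT-ND4, -0.14 to 0.17 for MT-ND6, -0.00033 to 0.085 for TFB2M, -0.19 to 0.040 for TEFM and -0.16 to 0.13 for MTND1P23. The causes of these turns were not tested.

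Same-numbered libraries correlated at 0.0955, 0.0132 and 0.134 in their deviations from the group means. Libraries of different number correlated at -0.131 to 0.0417. With 3 libraries in each group, these values cannot decide whether the replicate numbers pair the libraries. A replicate block gave 21 mitochondrial calls (19 higher, 2 lower), 34 among nuclear factors and 2 among copies. Other scalings, limma-voom on recovered reads (22 mitochondrial calls) and a pseudocount of 0.1 (21) turned no direction of a named mitochondrial gene. Depth limits the 14 tRNA genes that stayed under 100 reads in every library.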
